A study of Mus musculus with 6 samples.

Results

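The Egf receptor family and its ligands were followed in dental epithelial organoids (DEOs) as 10 genes chosen by symbol, out of 47360 gene symbols in the expression table. They are 3 receptor genes, Egfr, Erbb2 and Erbb3, and 7 ligand genes, Areg, Ereg, Btc, Hbegf, Tgfa, Epgn and Nrg1. All 10 symbols were found, each as a single entry. The DEOs came from apical buds of incisors of wild-type, 9-week-old female C57BL/6J mice and were grown in Matrigel for 14 days. Every medium held 50% Wnt3a-conditioned medium, 5% R-spondin1-conditioned medium, EGF at 100 µg/ml, Noggin at 200 µg/ml, Y27632 at 10 µM and N-acetylcysteine (an antioxidant) at 1 mM, so a ligand of the Egf receptor was supplied to all DEOs. The medium +N held none of the factors compared, +NF held FGF10 at 100 µg/ml, +ND held DBZ at 10 µM, and +NFD held both. DBZ (dibenzazepine) inhibits γ-secretase, the protease that releases the intracellular domain of Notch receptors. Doses are those in the sample labels. The methods text of the study gives the figure for DBZ in millimolar, and the µg/ml of EGF, Noggin and FGF10 are unusually high for such media, so these units are uncertain. There was 1 library per medium, so no value below has a replicate error, and no difference between media was tested. Libraries from DEOs grown with Jagged1 (+NJ and +NFJ) were not analysed here.

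The receptors of this family are tyrosine kinases that act in pairs on the cell surface. Egfr binds Egf, Areg, Tgfa, Epgn, Btc, Hbegf and Ereg, Erbb3 binds neuregulins such as Nrg1 and has a kinase of little activity, and Erbb2 has no known ligand of its own and acts as the partner of the others. The ligands are made as membrane proteins, are cut loose by ADAM proteases, and share an EGF-like domain held together by 6 cysteines. In stratified epithelia several of the ligands of Egfr serve as autocrine growth signals for keratinocytes.

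The coding sequence of this domain is shown for 6 of the 7 ligand genes, because the domain is the part that binds the receptor and the spacing of its cysteines sets Nrg1 apart from the others. Each sequence runs from the codon of the first to the codon of the last of the 6 cysteines, 5′ to 3′ along the coding strand, with the cysteine codons in capitals. The coordinates are on GRCm38 and span the intron that splits the stretch in each of the 6 genes.
Areg (chr5:91143614-91144364, + strand): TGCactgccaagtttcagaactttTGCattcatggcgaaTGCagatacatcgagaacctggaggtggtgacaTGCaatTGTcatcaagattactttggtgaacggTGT
Ereg (chr5:91088496-91089111, + strand): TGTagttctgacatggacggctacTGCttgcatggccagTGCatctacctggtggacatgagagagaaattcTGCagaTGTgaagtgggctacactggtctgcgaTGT
Btc (chr5:91362421-91366197, - strand): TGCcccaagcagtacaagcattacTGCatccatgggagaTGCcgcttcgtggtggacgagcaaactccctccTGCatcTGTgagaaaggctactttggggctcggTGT
Epgn (chr5:91031152-91032237, + strand): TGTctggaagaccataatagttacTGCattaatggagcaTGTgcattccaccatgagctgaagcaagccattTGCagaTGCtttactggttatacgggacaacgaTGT
Tgfa (chr6:86263200-86269960, + strand): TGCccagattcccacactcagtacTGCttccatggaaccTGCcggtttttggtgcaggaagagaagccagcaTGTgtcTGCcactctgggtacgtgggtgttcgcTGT
Nrg1 (chr8:31837698-31849398, - strand): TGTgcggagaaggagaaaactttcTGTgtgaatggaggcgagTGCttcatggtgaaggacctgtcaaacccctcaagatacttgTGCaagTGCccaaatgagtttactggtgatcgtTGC
In Areg, Ereg, Btc, Epgn and Tgfa the stretch was 108 bases (36 residues) long, with 4 residues between the second and the third cysteine and 10 between the third and the fourth. In Nrg1 it was 120 bases (40 residues) long, with 5 and 13 residues at these places. Over the 10 pairs of the 5 stretches of equal length, 45.4% (Ereg and Tgfa) to 62.0% (Btc and Tgfa) of the bases were the same. Epgn, Ereg, Areg and Btc lie together on chromosome 5, from chr5:91027464-91035215 for Epgn to chr5:91357261-91402994 for Btc, a span of 375.5 kb that holds 0 other protein-coding genes. The first 3 of these are on the + strand and Btc is on the − strand. The other genes lie apart: Egfr at chr11:16752203-16918158 and Erbb2 at chr11:98412470-98437716 on the + strand, Tgfa at chr6:86195223-86275719 on the + strand, and Erbb3 at chr10:128567523-128589652 and Nrg1 at chr8:31814551-32884029 on the − strand. Of the 10 genes, 5 (Egfr, Erbb2, Ereg, Tgfa and Nrg1) overlap a gene annotated on the opposite strand.

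The values are FPKM, fragments scaled to transcript length and to the mapped fragments of the library, which are corrected for length and can be set side by side between genes. In DEOs grown in +N, the transcripts ranked from Hbegf at 47.6 FPKM and Erbb2 at 36.1 FPKM down to Ereg at 1.55 FPKM and Epgn at 0.683 FPKM. Of the 10 genes, 8 were at or above 1 FPKM in all 4 media, and the exceptions were Epgn in +N and +NF and Btc in +NFD. The other genes of the family were at low levels: Erbb4, the remaining receptor, was at 0.00295, 0, 0.00283 and 0 FPKM in +N, +ND, +NF and +NFD, and Nrg3 was listed at 0 in all 4. Egf itself was between 0.130 (+ND) and 0.496 FPKM (+N), Nrg4 between 0.226 and 0.583 FPKM, and Nrg2 between 0.608 (+N) and 1.97 FPKM (+ND). The receptor transcripts measured in the DEOs were thus nearly all Egfr, Erbb2 and Erbb3.

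**Figure D1:**
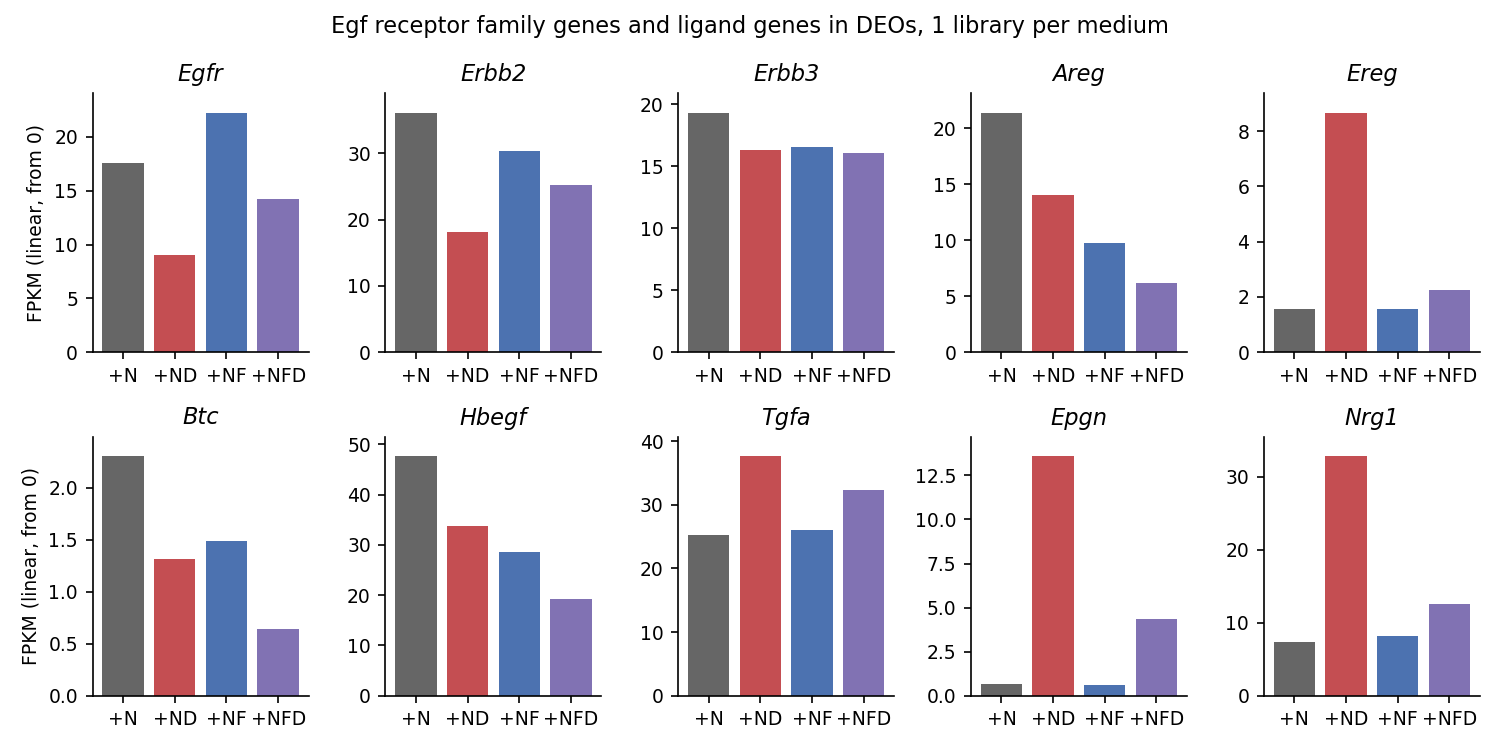
FPKM (linear axis from 0, a separate scale for each gene) of the 3 receptor genes and 7 ligand genes in DEOs grown in +N, +ND, +NF and +NFD, 1 library per bar and no error bars. Epgn, Ereg and Nrg1 are highest in +ND, while Areg and Hbegf step down from +N through +ND and +NF to +NFD.

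The libraries were of similar depth and of epithelial character. From the smallest steps in the values of 8409 genes, the depth of +ND was 0.796 of that of +N, and those of +NF and +NFD were 1.04 and 1.05. All 8 epithelial markers on the list were at 1 FPKM or more in every library. Their summed level was 20731, 11917, 16991 and 14151 FPKM in +N, +ND, +NF and +NFD. Most of this sum was Krt14, at 12652, 5530, 8295 and 6090 FPKM, and Krt5, at 6582, 4984, 6535 and 6177 FPKM. From +N to +ND, 6 of the 8 were lower and 2, Trp63 and Itgb4, were higher. The 8 markers of suprabasal keratinocytes summed to 845, 2795, 120 and 751 FPKM and the 10 fibroblast markers to 154, 130, 96.2 and 382 FPKM. The 10 macrophage markers summed to 651, 509, 474 and 394 FPKM, of which Lyz2 made up 73.1% to 81.2%, and 0 of the 10 were at 0 in any library. The 6 endothelial markers summed to at most 0.326 FPKM, with 1 to 3 of them at 0. In RNA from whole DEOs, fewer cells of a type and less RNA per cell cannot be told apart.

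Ratios between 2 libraries are given as log2((FPKM + 1)/(FPKM + 1)), which understates the ratio of genes of low level. A gene entered a comparison if either library had it at 1 FPKM or more, and it counted as higher or lower from a 2-fold ratio. In +ND against +N, which shows DBZ without FGF10, 3 of the 10 genes were 2-fold higher (5.88% of the 13173 genes) and 0 were 2-fold lower (5.29% of all genes). In +NFD against +NF, DBZ with FGF10, 1 of 10 was higher (3.72% of the 13349 genes) and 0 were lower (2.69%). In +NF against +N, FGF10 without DBZ, 0 of 9 were higher (2.76% of the 13090 genes) and 1 was lower (2.44%), since Epgn was under 1 FPKM in both libraries and did not enter. In +NFD against +ND, FGF10 with DBZ, 0 of 10 were higher (3.39% of the 13293 genes) and 4 were lower (3.11%). In +NFD against +N, both factors together, 1 of 10 was higher (5.85% of the 13358 genes) and 3 were lower (4.03%). The median log2 ratio of the members was -0.36, -0.15, -0.21, -0.64 and -0.27 in these 5 comparisons, beside 0.10, 0.05, 0.12, 0.09 and 0.18 for all genes. A single library per medium gives these counts no error. The 2 comparisons of DBZ share no library and nor do the 2 of FGF10, but the other pairs share a library: +N enters 3 of the 5 comparisons, +ND 2, +NF 2 and +NFD 3.

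Among the receptors, Egfr was measured at 17.6 (+N), 9.07 (+ND), 22.3 (+NF) and 14.2 FPKM (+NFD). It was lower in both libraries with DBZ than in both without, by a log2 ratio of -0.89 without FGF10 and of -0.61 with it, and higher with FGF10 at either state of DBZ (0.32 and 0.60). Erbb2, the shared partner, was measured at 36.1 (+N), 18.1 (+ND), 30.3 (+NF) and 25.3 FPKM (+NFD). It was also lower with DBZ, at -0.96 without FGF10 and -0.25 with it. None of these ratios reached 2-fold, but the value of Erbb2 without FGF10 lay so close to the limit that it passed it, at -1.06, when the ratios were centred on the median of all genes. Mien1, which overlaps Erbb2 on the opposite strand, was at 111, 102, 80.0 and 97.3 FPKM in +N, +ND, +NF and +NFD, and whether the counting kept the strands apart is not given in the sources used here. Its part in the values of Erbb2 was not tested. The genes opposite Egfr, Tgfa and Nrg1 were at most at 1.22 FPKM in any library.

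Erbb3, the neuregulin receptor, was the steadiest of the 10 genes across the 4 libraries, at 19.3 (+N), 16.3 (+ND), 16.6 (+NF) and 16.1 FPKM (+NFD), a highest value 1.20 times the lowest. Its share of the summed receptor FPKM was therefore largest in +ND, at 37.5%, beside 26.4% in +N, 24.0% in +NF and 28.9% in +NFD. The share of Egfr was largest in +NF, at 32.2%, and smallest in +ND, at 20.9%. Erbb2 held the largest share in all 4 libraries, from 41.6% to 49.4%.

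Of the ligands, Epgn had the widest range, with a highest value 22.4 times the lowest. Epgn encodes epigen, a ligand of Egfr of low affinity. It was measured at 0.683 (+N), 13.6 (+ND), 0.607 (+NF) and 4.38 FPKM (+NFD), so both libraries with DBZ lay above both without. The log2 ratio for DBZ was 3.12 without FGF10 and 1.74 with it, and that for FGF10 in the presence of DBZ was -1.44. In +N and +NF these levels correspond to about 33 and 30 fragments, from the longest of its transcripts. Counting error alone then gave the FPKM ratio of +ND to +N, 19.9, a 95% interval of 13.9 to 29.1 (exact binomial on the approximate fragments), and the ratio of +NFD to +NF, 7.21, one of 4.97 to 11.1. Such intervals leave out all variation between cultures.

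Nrg1, the ligand of Erbb3, was measured at 7.43 (+N), 32.8 (+ND), 8.13 (+NF) and 12.6 FPKM (+NFD). It was likewise higher in both libraries with DBZ, with a log2 ratio of 2.01 without FGF10 and 0.57 with it, and only the first of these was 2-fold. Ereg, epiregulin, was measured at 1.55 (+N), 8.67 (+ND), 1.55 (+NF) and 2.26 FPKM (+NFD), which gave log2 ratios of 1.92 and 0.35. The 3 genes Epgn, Nrg1 and Ereg were those that passed 2-fold upward from +N to +ND. Their log2 ratios in +NFD against +ND were -1.44, -1.32 and -1.57, and since this comparison uses the same +ND library in which they were high, it is no separate evidence. The ratio for DBZ was smaller with FGF10 than without it by 1.37, 1.44 and 1.57 on the log2 scale for Epgn, Nrg1 and Ereg, and no other member differed by 1 or more between the 2 comparisons; these differences rest on the same +ND library. In the absence of DBZ, +NF and +N were close for all 3, with log2 ratios of 0.12 for Nrg1 and 0.0029 for Ereg, and Epgn was under 1 FPKM in both; centring on the median of all genes turned the ratio of Ereg to -0.11.

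Some of the 8 markers of suprabasal keratinocytes were higher with DBZ, as Epgn, Nrg1 and Ereg were. Of the 8, 5 were 2-fold higher in both comparisons of DBZ (Krt1, Lor, Flg, Sbsn and Krtdap), and 4 had the same order of media as Epgn (Krt1, Flg, Sbsn and Krtdap). Epgn was at 0.683 FPKM in +N and 0.607 in +NF, and the counting interval of this ratio, 0.513 to 1.47, spans equality. For Ereg and Nrg1 the log2 ratios of +NF to +N were -0.11 and 0.00031 when centred on the median of all genes. The ranks of +N and +NF therefore carry no weight where an order is matched to these genes. Lor, a cornified envelope protein with the same order as Nrg1 and Ereg, was measured at 12.7 (+N), 220 (+ND), 13.4 (+NF) and 164 FPKM (+NFD). Sbsn, suprabasin, was measured at 24.2 (+N), 316 (+ND), 17.6 (+NF) and 144 FPKM (+NFD). Both were thus higher in the 2 libraries with DBZ than in the 2 without, as Epgn was. Krt10 and Krt13 had another order and were 2-fold lower in +ND against +N (-1.49 and -1.75), opposite to Epgn, Nrg1 and Ereg. In +NFD against +NF they were higher (0.80 and 1.06). Their log2 ratios for FGF10 were -5.40 and -4.48 in +NF against +N, and -3.10 and -1.67 in +NFD against +ND. Flg (-2.04 and -1.28) and Krtdap (-1.99 and -2.40) were also 2-fold lower in both comparisons of FGF10. Ivl had log2 ratios for DBZ of 0.30 without FGF10 and -0.42 with it. Of the epithelial markers, the adhesion molecule Epcam was 2-fold lower in both comparisons of DBZ (-1.15 and -1.14) and the integrin Itgb4 2-fold higher in both of FGF10 (1.04 and 1.31). The part of a differing make-up of keratinocytes in the levels of the ligands was not tested. The summed level of the fibroblast markers was highest in +NFD. The part of fibroblast RNA in the levels of the ligands was not tested.

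**Figure D2:**
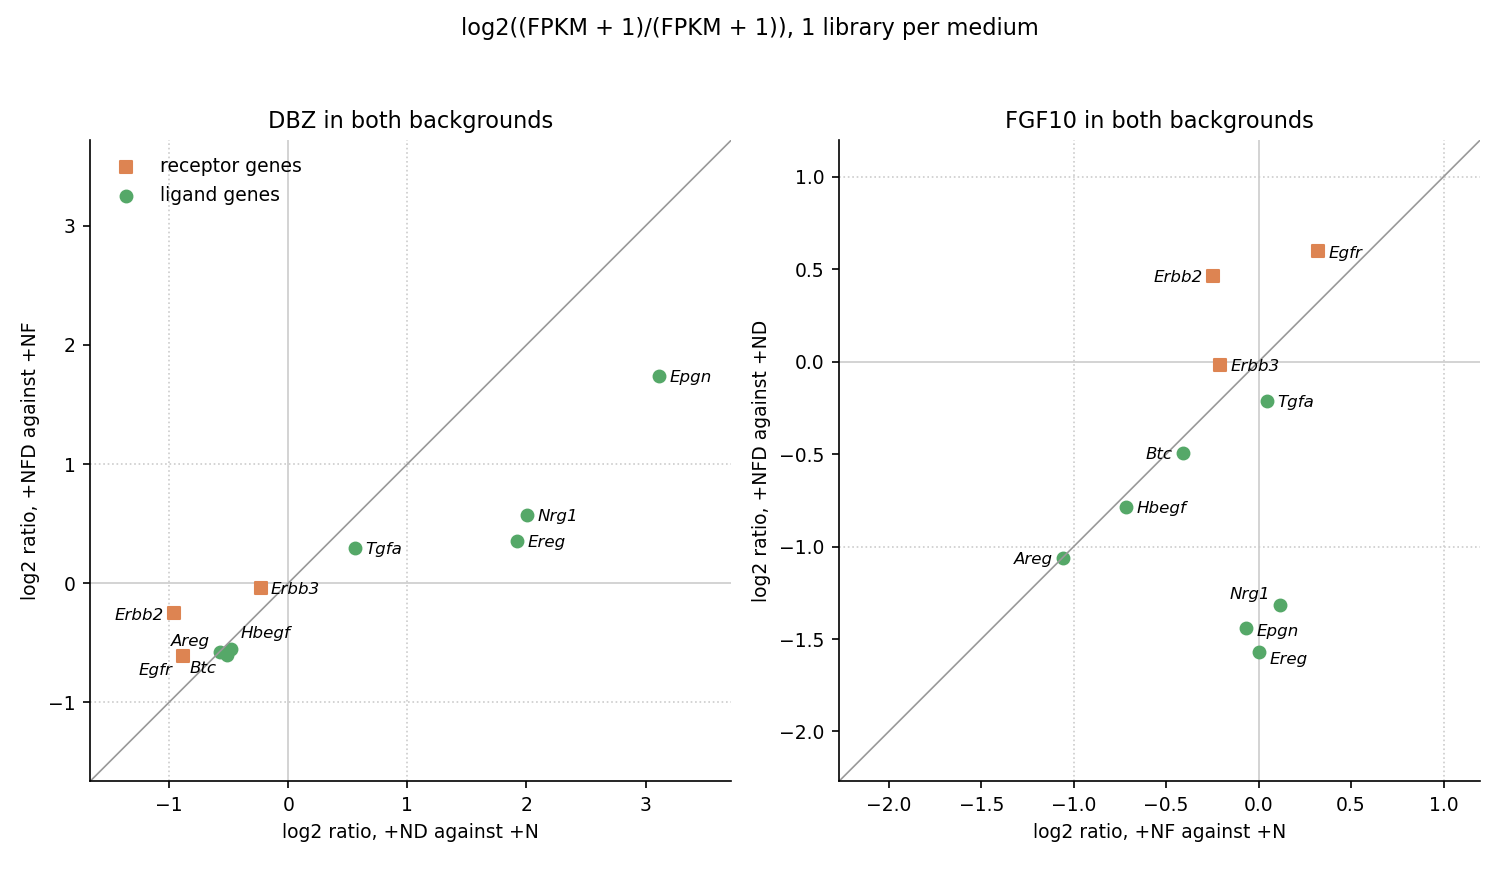
Each point is 1 gene (squares, receptors; circles, ligands), placed by its log2 ratio for DBZ without FGF10 (x) and with FGF10 (y) on the left, and for FGF10 without DBZ (x) and with DBZ (y) on the right; the diagonal marks equal ratios and the dotted lines 2-fold. On this scale, with its pseudocount of 1, Areg, Hbegf and Btc lie near the diagonal, whereas Epgn, Nrg1 and Ereg lie below it. Each gene is off the diagonal by the same log2 difference in both panels, because both are made from the same values. The FGF10 ratios of Epgn, Nrg1 and Ereg in the presence of DBZ are -1.44, -1.32 and -1.57. The FGF10 ratio of Epgn without DBZ, -0.067, is drawn although both its values are under 1 FPKM.

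Areg, Hbegf and Btc went the other way. Areg, amphiregulin, was measured at 21.4 (+N), 14.1 (+ND), 9.78 (+NF) and 6.22 FPKM (+NFD). Each factor went with a lower level whether or not the other was present: the log2 ratio for FGF10 was -1.06 without DBZ and -1.06 with it, and that for DBZ was -0.57 without FGF10 and -0.58 with it. These ratios all come from the same libraries, so agreement within the FGF10 pair fixes agreement within the DBZ pair. With both factors the level was 0.290 of that in +N (95% counting interval 0.248 to 0.338). Areg was the only member 2-fold lower with FGF10 alone. Counting error alone gave that ratio of +NF to +N, 0.457, a 95% interval of 0.401 to 0.521, which crosses the 2-fold limit.

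Hbegf, the heparin-binding ligand and the highest of the 7 in +N, was measured at 47.6 (+N), 33.8 (+ND), 28.6 (+NF) and 19.2 FPKM (+NFD), the same order of media as Areg. Its log2 ratio was -0.48 and -0.55 for DBZ and -0.72 and -0.79 for FGF10, without and with the other factor, and it passed 2-fold only with both, at -1.27. Btc, betacellulin, was measured at 2.30 (+N), 1.31 (+ND), 1.49 (+NF) and 0.642 FPKM (+NFD), so it was lowest where both factors were present. Its log2 ratio of +NFD to +N was -1.01, and about 74 fragments underlie the value in +NFD. For these 3 genes the DBZ ratios without and with FGF10 differed by at most 0.086 on the log2 scale. Without the pseudocount, which compresses the ratios of a gene as low as Btc, they differed by 0.048 for Areg, 0.079 for Hbegf and 0.40 for Btc, whose ratios were then -0.81 and -1.22. They were grouped after their values were seen. The summed level of the macrophage markers had the same order of media as Areg and Hbegf, but without Lyz2 it was 123, 101, 101 and 106 FPKM in +N, +ND, +NF and +NFD. The part of macrophage RNA in these values was not tested.

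Tgfa, transforming growth factor α, was within 2-fold in all 4 libraries. It was measured at 25.2 (+N), 37.7 (+ND), 26.1 (+NF) and 32.3 FPKM (+NFD), higher in both libraries with DBZ (log2 ratios 0.56 and 0.30) and 2-fold different in none of the 5 comparisons. Its FGF10 ratio without DBZ, 0.047, became -0.069 when centred on the median of all genes.

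The make-up of the ligand transcripts differed between media. The 7 ligands summed to 106 (+N), 142 (+ND), 76.2 (+NF) and 77.6 FPKM (+NFD), while the 3 receptors summed to 73.1, 43.4, 69.2 and 55.6 FPKM. The ratio of the ligand sum to the receptor sum was thus 3.27 in +ND, beside 1.45 in +N, 1.10 in +NF and 1.40 in +NFD. Areg, Hbegf and Btc together held 67.2% (+N), 34.6% (+ND), 52.2% (+NF) and 33.5% (+NFD) of the ligand sum. Epgn, Nrg1 and Ereg held 9.09%, 38.8%, 13.5% and 24.8% of it. Both groups were formed from these same values, so the differences in their shares are no separate evidence. Hbegf led in +N (44.8%) and +NF (37.5%) and Tgfa in +ND (26.5%) and +NFD (41.7%), and the ratio of Hbegf to Tgfa was 1.89, 0.896, 1.09 and 0.592 in +N, +ND, +NF and +NFD.

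**Figure D3:**
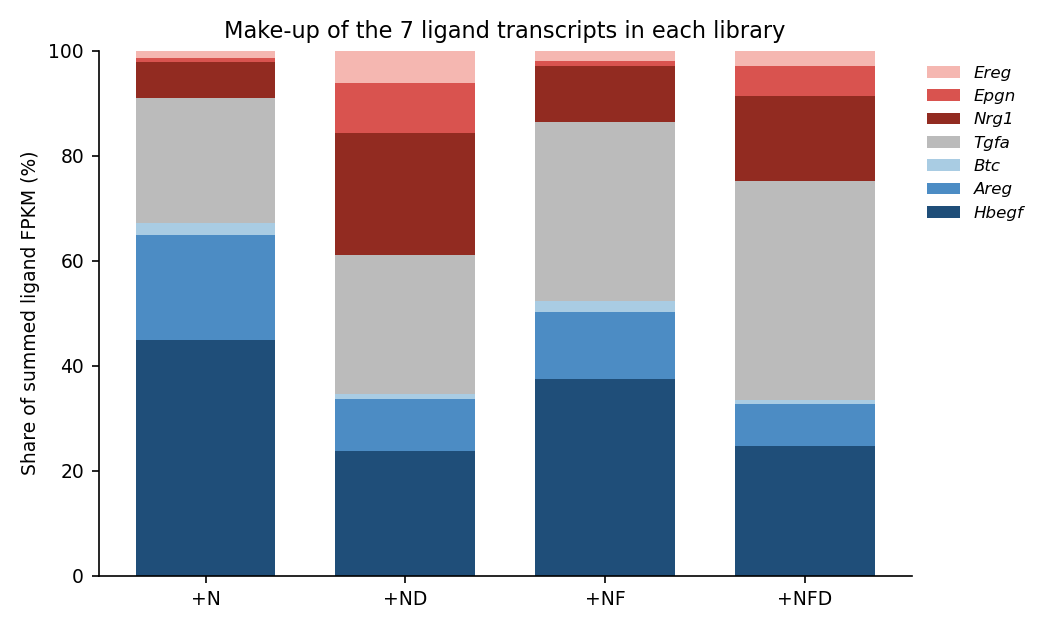
Stacked bars give the share (%) of each ligand gene in the summed FPKM of the 7 ligands, 1 library per medium. Hbegf, Areg and Btc (blue) hold 67.2% in +N and 33.5% in +NFD, and Nrg1, Epgn and Ereg (red) hold 38.8% in +ND. Both groups were formed from these same values.

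The promoters of these genes were searched for 2 motifs, TGANTCA, bound by AP-1, and TGGGAA, the core bound by the Notch partner RBPJ, on both strands. RefSeq windows from 250 bases before to 50 bases after the start were found for 6 of the 10 genes (Egfr, Erbb2, Areg, Btc, Tgfa and Epgn). AP-1 letters were in 0 of the 6, beside 7.81% of all 32851 promoters, and RBPJ letters in 1 of the 6, beside 25.6% of all. That promoter was Areg, with the match in capitals in the 250 bases before its start (chr5:91139349-91139598, GRCm38.p6, + strand), beginning at position -165 from the start.
Areg promoter: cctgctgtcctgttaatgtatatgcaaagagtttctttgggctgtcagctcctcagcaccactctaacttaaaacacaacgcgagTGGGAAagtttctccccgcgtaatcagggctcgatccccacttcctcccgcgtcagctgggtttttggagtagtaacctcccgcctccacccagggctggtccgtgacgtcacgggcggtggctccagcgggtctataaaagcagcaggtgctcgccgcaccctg
A match of letters describes the window and not binding.

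The wider pathway was described from lists of genes by role. Of 11 genes for the release of the ligands, 2 were 2-fold lower in +ND than in +N (5.29% of all genes) and 1 in +NFD than in +NF (2.69%). The median log2 ratio of the list was -0.37 and 0.0058 in these 2 comparisons of DBZ and 0.10 and 0.24 in the 2 of FGF10. Adam12, a membrane metalloprotease, was in both counts, at 6.86 (+N), 0.487 (+ND), 7.51 (+NF) and 0.621 FPKM (+NFD). Furin, which activates ADAM proteases by cutting off their propeptide, was the other gene 2-fold lower without FGF10, at 105 FPKM in +N and 48.4 in +ND, beside 114 in +NF and 76.6 in +NFD. Adam17, the main sheddase of several of these ligands, was at 27.6, 21.1, 29.8 and 21.6 FPKM. Timp3, an inhibitor of Adam17, was the 1 gene of the list that was 2-fold higher with FGF10 (2.76% of all genes without DBZ and 3.39% with it), at 44.7 and 48.8 FPKM in +NF and +NFD against 14.7 and 22.2 FPKM in +N and +ND.

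Of 15 genes that restrain or turn over the receptors, 1 was 2-fold higher in +ND than in +N (Socs4, a suppressor of cytokine and Egf receptor signalling, 10.2 against 4.40 FPKM; 5.88% of all genes), and 0 passed 2-fold in +NFD against +NF or in either comparison of FGF10. The median log2 ratio of this list was 0.14 and -0.10 for DBZ and 0.12 and -0.13 for FGF10. Errfi1, a feedback inhibitor that binds the receptor kinases, had log2 ratios of 0.88 and 0.90 for DBZ, at 12.7 (+N), 24.3 (+ND), 11.1 (+NF) and 21.6 FPKM (+NFD). Of 25 adaptors and kinases, 1 was 2-fold lower in +ND than in +N (Eps8, a substrate of the receptor, 2.51 against 6.71 FPKM; 5.29% of all genes) and 0 passed 2-fold in the other comparisons. Their medians lay between -0.064 and 0.14 in the comparisons of DBZ and FGF10.

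Among 17 genes of the ERK output, the transcripts that follow the kinase cascade below the receptors, 4 were 2-fold higher in +ND against +N (Etv4, Etv5, Fosl1 and Ier3), beside 5.88% of all genes, and 1 was lower (Plaur), beside 5.29%. Fosl1 was the 1 gene 2-fold higher in +NFD against +NF (3.72% of all genes). In the comparisons of FGF10, 4 were higher without DBZ (Dusp6, Spry1, Etv4 and Etv5), beside 2.76% of all genes, 2 were higher with DBZ (Spry1 and Spry2), beside 3.39%, and 0 were lower. The median log2 ratio of the list was 0.40 and 0.11 for DBZ and 0.27 and 0.12 for FGF10. Fosl1, an AP-1 subunit, was at 8.17, 20.2, 7.59 and 16.3 FPKM in +N, +ND, +NF and +NFD. Spry1, a feedback inhibitor of receptor tyrosine kinase signalling, was at 4.77, 5.44, 17.9 and 21.7 FPKM.

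**Figure D4:**
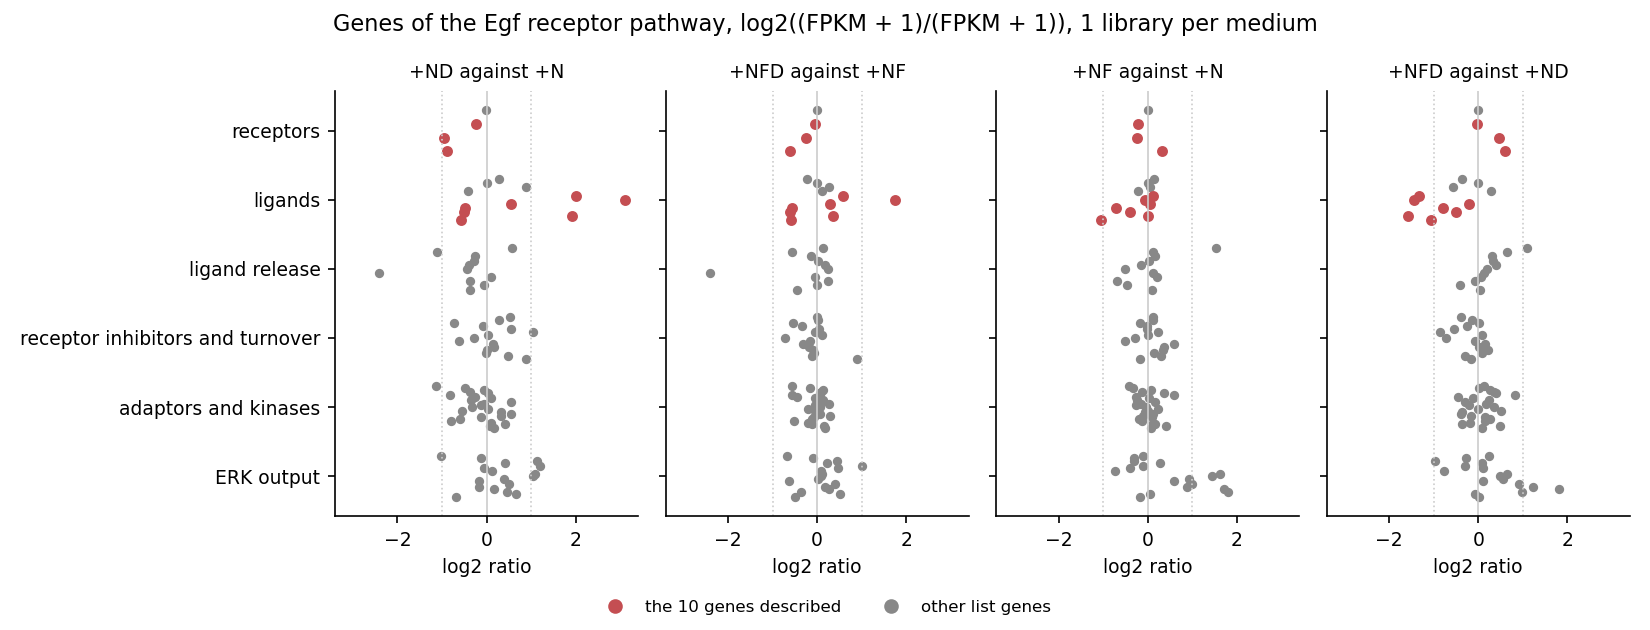
Each point is a gene of the Egf receptor pathway, placed by its log2 ratio in the 4 comparisons and grouped by role; red points are the 10 genes described, grey points the other genes of each list, and dotted lines mark 2-fold. Genes at or below 1 FPKM are drawn too. The largest DBZ ratio without FGF10 is that of Epgn (3.12), and the lowest is that of Adam12 (-2.40).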

How the data were processed

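The authors trimmed and checked the reads with Trim Galore 0.6.5 and FastQC 0.11.9, aligned them to the mouse genome GRCm38 with TopHat2 2.1.1 (versions from the submitters' processing notes) and deposited FPKM values estimated with Cufflinks. The annotation release, the strand setting and the Cufflinks options are not given in the sources used here. FPKM divides by transcript length and by library size, so short or rare transcripts rest on few fragments, and abundant transcripts lower the values of all others. The 4 libraries used are 1 per medium, so no test was made. The 10 genes and the gene lists were chosen with earlier results of these data known.

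From the deposited FPKM, entries of the same symbol were summed (123 symbols). Log2 ratios used a pseudocount of 1 over genes at 1 FPKM or more in either library, and genes were counted from 2-fold. The study drew a 2-fold limit too, but on its own fold changes and together with a P-value limit. All 10 genes were named with every value. Other list genes were named if they passed 2-fold in the same direction in both comparisons of DBZ or both of FGF10. Adam17, Furin, Errfi1, Socs4, Eps8, Ivl and the ERK output genes other than Fosl1 and Spry1 were named after their values were seen. Fragments were approximated as FPKM times transcript length divided by the value of 1 fragment, taken from the smallest steps among the low values of 8409 genes, with the longest transcript of each gene (3 of the 10 have 1 transcript); intervals are 95% exact binomial and cover counting error only. Of the table's identifiers, 47080 were found in GENCODE M21 (GRCm38), and 9 of the 10 genes had the same coordinates there. Coding stretches were read from GENCODE M21 transcripts, by the spacing of cysteines in their translation, in place of the RefSeq proteins that had been planned. Promoters were read from RefSeq (GRCm38.p6). The scripts were tested on simulated data and ran in Python 3.11.15 with pandas 2.3.3, numpy 2.4.6, scipy 1.17.1 and matplotlib 3.10.9. Alternatives were the pseudocount, the filter, scaling to the upper quartile, centring on the median of all genes, the highest entry per symbol, and shares by fragments or over all ligand genes.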

Additional observations from a re-analysis of the deposited data

Results flagged for a closer look

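For 4 genes the log2 ratio for FGF10 had one sign without DBZ (+NF against +N) and the other with DBZ (+NFD against +ND). Erbb2 was at -0.24 without and 0.46 with DBZ, Ereg at 0.0029 and -1.57, Tgfa at 0.047 and -0.21, and Nrg1 at 0.12 and -1.32. With 1 library per medium the difference was not tested for any of them. The values without DBZ are small: centred on the median of all genes, that of Ereg was -0.11 and that of Tgfa -0.069, so the signs of these 2 genes were then the same in both comparisons. That of Nrg1 was then 0.00031, too small for its sign to carry weight. For Ereg, counting error alone gave the ratio of +NF to +N in depth-scaled fragments, 1.01, a 95% interval of 0.814 to 1.25. The same ratio for Tgfa, 1.03, had an interval of 0.985 to 1.09.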

How the results depend on the processing

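No member that passed 2-fold changed direction under any of the alternatives. With a pseudocount of 0.1, and with none, 1 member instead of 0 was 2-fold lower in +NFD against +NF (Btc), and with none, 5 instead of 4 were lower in +NFD against +ND (Btc again). With a filter at 5 FPKM, 0 instead of 1 was 2-fold higher in +NFD against +NF and 0 instead of 1 in +NFD against +N, since Epgn no longer entered, 2 instead of 3 were lower in +NFD against +N, since Btc did not enter, and the DBZ ratios of 1 member instead of 3 differed by 1 or more between the states of FGF10. With upper-quartile scaling, and with centring, 1 instead of 0 was 2-fold lower in +ND against +N (Erbb2). Without the filter and with the highest entry per symbol, all counts of members were as reported. By approximate fragments in place of FPKM, Hbegf held 41.1% of the ligand sum in +N and 30.6% in +NF, and Tgfa 32.3% in +ND and 49.3% in +NFD, so that the leading ligand became Nrg1 in +ND (33.7%) and Tgfa in +NF (43.7%). No paired analysis was possible because there is 1 library per medium. The fewest fragments, about 30, lie behind Epgn in +NF, and the absence of replicates limits every comparison.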
